A study of Homo sapiens with 6 samples.

Results

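The genes described here are 9 actin crosslinkers and scaffold proteins of stress fibers: the alpha-actinins ACTN1 and ACTN4, synaptopodin SYNPO and its relative SYNPO2, the filamins FLNA and FLNC, palladin PALLD, fascin FSCN1 and the plastin PLS3. They were taken by symbol from the single deposited table of RNA sequencing, and all 9 were found among its 20745 genes. The RNA came from AB 8/13 podocytes, a human podocyte line immortalized with a temperature-sensitive gene. The line divides at the permissive temperature and differentiates when it is moved to the restrictive one. Before treatment the cells were kept at the restrictive temperature to differentiate, per the study's methods. In the study, 3 vehicle cultures and 3 cultures exposed to 1 µM levamisole, an anthelmintic drug also given in nephrotic syndrome, were compared after 24 h. Per the sample labels both groups were kept without serum, whereas per the study's methods the vehicle cultures had complete medium, so the 2 sources disagree on what the controls received. All cultures are of 1 cell line, and the methods describe the replicates of each group as different passages.

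The table holds 1 level per gene, the base mean, which is the authors' mean over the libraries of their model of the read counts after scaling for depth. It has no value per culture, so a base mean has neither a spread nor an n, and vehicle and levamisole cultures are not told apart in it. The other columns of values are the authors' own comparison of the groups and were not used, so no effect of levamisole on these genes is given. What follows is the level of each crosslinker, its order among its relatives and partners, and how far its reads could be mistaken for those of another gene. In the 6000 lowest base means no step worth 1 read was found, since any 1 difference was shared by at most 2 pairs of genes. The number and the depth of the libraries behind a base mean are therefore unknown, as is whether they come from these cultures alone.

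Actin crosslinkers tie filaments into bundles or nets. Alpha-actinin, a rod-shaped dimer, spaces filaments along stress fibers, filamin joins them at wide angles and links them to integrins, and fascin and plastin pack them tightly into straight bundles. Synaptopodin and palladin bind alpha-actinin and organize contractile bundles. In the kidney, podocyte foot processes are built on bundled actin, mutations of ACTN4 cause a dominant form of focal segmental glomerulosclerosis, and synaptopodin is a marker of differentiated podocytes.

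Because ACTN1 and ACTN4 are close copies of each other, their sequences show how far a short read could belong to either. Their proteins of 914 and 911 residues were identical at 768 of 892 aligned residues, which is 86.1%. The longest run of identical bases in their reference transcripts was 73 bases, longer than a read of 60 bases. It lies in coding exon 10 of both genes, at chr14:68892102-68892174 on the minus strand for ACTN1 and chr19:38717195-38717267 on the plus strand for ACTN4 (GRCh38). The run is printed in capitals, 5′ to 3′ on the transcript, with 20 bases on each side in lower case.
ACTN1: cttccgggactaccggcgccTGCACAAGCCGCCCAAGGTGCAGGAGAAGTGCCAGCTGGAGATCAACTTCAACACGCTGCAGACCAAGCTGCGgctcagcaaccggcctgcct
ACTN4: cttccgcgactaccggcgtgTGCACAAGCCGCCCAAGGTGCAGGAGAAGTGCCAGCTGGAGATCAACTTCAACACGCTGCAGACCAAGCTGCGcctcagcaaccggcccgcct
The lower-case flanks hold the bases at which the copies part. The run ends 2439 bases before the end of the ACTN1 transcript and 3799 bases before the end of the ACTN4 transcript. The libraries were made by a CEL-seq protocol, in which cDNA synthesis is primed at the poly(A) tail, so that reads gather toward the 3′ end. Of all windows of read length, 14 of 3663 in ACTN1 and 78 of 4931 in ACTN4 also occurred in a transcript of another gene. For ACTN4, 64 of these lay in its processed pseudogene ACTN4P1, which has no row in the table.

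For the filamins the longest run shared by FLNA and FLNC was 50 bases, shorter than a read. It begins at base 94 of the FLNA coding sequence (chrX:154371103-154371152, minus strand) and at base 73 of the FLNC coding sequence (chr7:128830710-128830759, plus strand), in the part that encodes the N-terminus of the protein. It is printed in the same way.
FLNA: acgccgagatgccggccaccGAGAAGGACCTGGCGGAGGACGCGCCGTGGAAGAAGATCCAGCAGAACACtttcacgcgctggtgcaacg
FLNC: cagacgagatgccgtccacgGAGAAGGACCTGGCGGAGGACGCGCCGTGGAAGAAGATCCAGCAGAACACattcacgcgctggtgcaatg
The FLNA and FLNC proteins were identical at 73.3% of aligned residues, over lengths of 2647 and 2725 residues. FLNC had 297 windows of read length in common with an unprocessed pseudogene (ENSG00000224163) on the same chromosome, out of 9100. FSCN1 had 129 of 2725 in common with its processed pseudogene FSCN1P1. FLNA, PALLD, PLS3 and SYNPO had none, and SYNPO2 had 13 of 7223.

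In the last 500 exonic bases of the reference transcript, 0 of the 9 genes had a window of read length that occurs in another gene's transcript. No base of this stretch lay in a same-strand exon of a different gene for any of the 9. The reads of these genes near this reference 3′ end could thus be assigned to 1 gene, as far as the reference transcripts show. A base mean does not tell isoforms apart. For ACTN1, 9 of 25 annotated coding transcripts end within 100 bases of the reference end, and for ACTN4 3 of 6. The counts were 4 of 14 for PALLD, 1 of 4 for SYNPO and for FSCN1, and 1 of 6 for PLS3. They were 3 of 7 for SYNPO2, 5 of 7 for FLNA and 2 of 2 for FLNC. Ends farther away were not searched.

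ACTN1 (ENSG00000072110, chr14:68874128-68979440, minus strand) had the highest base mean of the crosslinkers, at 34949. It held rank 15 of all genes, next below ACTB, the gene of cytoplasmic beta-actin, with a base mean of 35811. Among genes encoded in the nucleus 4 had a higher base mean, one of them a pseudogene of a mitochondrial gene. ACTN4 (ENSG00000130402, chr19:38647649-38731589, plus strand) followed with a base mean of 14320.5 and rank 34, next below ACTG1, the gene of gamma-actin, at 15623. The base mean of ACTN4 was 0.410 of that of ACTN1. Per kb of reference transcript the levels were 9390.0 for ACTN1 and 2869.8 for ACTN4, a ratio of 0.306. Since reads gather toward the 3′ end, counts need not grow with transcript length. The per kb scale is therefore given only beside the base mean, and it lowers genes with long transcripts. ACTN2, the alpha-actinin of heart and skeletal muscle, was close to the bottom of the table with a base mean of 0.341, and ACTN3, found in fast muscle fibers, has no row in it.

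**Figure D1:**
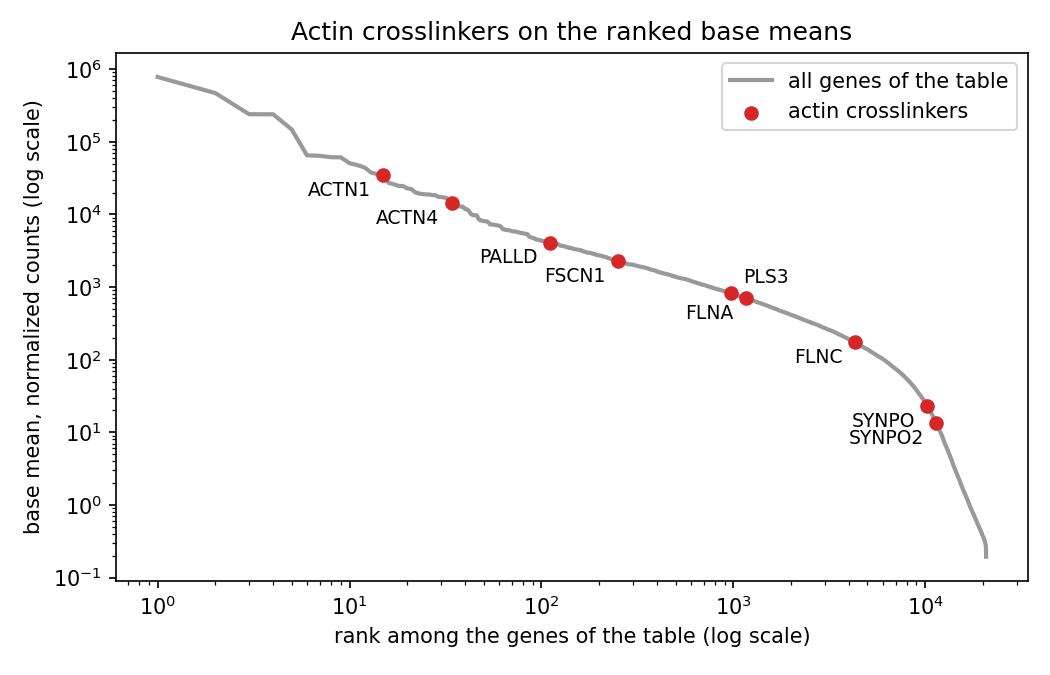
Base mean in normalized counts (vertical, log scale) of all genes of the table against their rank (horizontal, log scale), with the 9 actin crosslinkers as red points. ACTN1 and ACTN4 sit at ranks 15 and 34, whereas SYNPO and SYNPO2 sit at ranks 10269 and 11405.

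The filamins had far lower base means than the alpha-actinins. FLNA (ENSG00000196924, chrX:154348524-154374634, minus strand), the widely expressed filamin, had a base mean of 697 and rank 1158. FLNC (ENSG00000128591, chr7:128830406-128859274, plus strand), the filamin of muscle, had a base mean of 174 and rank 4293. The order was the same per kb of reference transcript, with 81.9 for FLNA and 19.0 for FLNC. FLNA exceeded FLNC by 4.01 times in base mean and by 4.32 times per kb. ACTN1 exceeded FLNA by 50.1 times in base mean. Per kb the ratio was 115, where FLNA is divided by a transcript of 8507 bases and ACTN1 by 3722 bases.

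Synaptopodin was low among the crosslinkers. SYNPO (ENSG00000171992, chr5:150601080-150659207, plus strand) had a base mean of 22.8 at rank 10269, and the median base mean of all genes was 21.8. This placed it at percentile 50.5 of all genes, but at percentile 23.0 of the genes with a base mean of 5 or more, at 14.4 of those with 10 or more, and, per kb of reference transcript, at 11.2 of the 11772 genes with a reference transcript and a base mean of 5 or more. SYNPO2 (ENSG00000172403, chr4:118850688-119061247, plus strand), also known as myopodin and known from smooth and striated muscle, had a base mean of 13.3 at rank 11405. SYNPO2L, its muscle relative, had a base mean of 1.78. Per kb of reference transcript, SYNPO was at 4.26 and SYNPO2 at 1.83. The 2 proteins were identical at 33.9% of aligned residues, and their transcripts had no run in common longer than 19 bases.

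PALLD, FSCN1 and PLS3 lay between these extremes. PALLD (ENSG00000129116, chr4:168497052-168928457, plus strand), a scaffold of stress fibers and focal adhesions, had a base mean of 4101 and rank 111. FSCN1 (ENSG00000075618, chr7:5592816-5606655, plus strand), which bundles the filaments of filopodia, had a base mean of 2277 and rank 250. This was the only pair of members whose order turned with the scale: per kb of reference transcript FSCN1 was at 818 and PALLD at 700.0. PLS3 (ENSG00000102024, chrX:115561174-115650861, plus strand), the plastin of solid tissues, had a base mean of 817 and rank 972. Of the other plastins, LCP1, the plastin of blood cells, had a base mean of 251 and PLS1, that of intestinal microvilli, one of 129.8. MYPN, the relative of palladin in striated muscle, had a base mean of 2.26, and FSCN2 and FSCN3, the fascins of retina and testis, had base means of 0.351 and 0.374. MYOT, a further relative of palladin, has no row in the table.

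**Figure D2:**
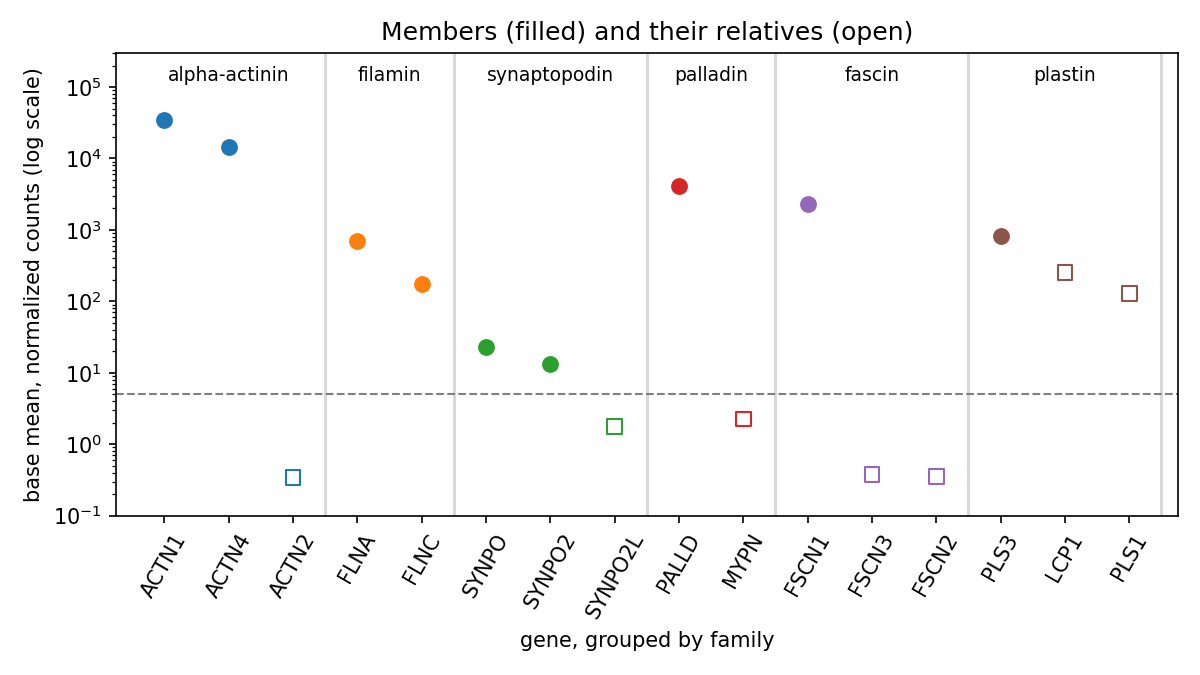
Base mean in normalized counts (vertical, log scale) of each member (filled circles) and of relatives of its family (open squares), grouped by family, with a dashed line at a base mean of 5. All 9 members lie above the line, from 13.3 for SYNPO2 to 34949 for ACTN1, while ACTN2, SYNPO2L, MYPN, FSCN2 and FSCN3 lie below it.

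Of the 9 members, 7 had a base mean of 100 or more and 4 reached 1000, compared with 29.4% and 3.67% of all genes in the table. Their base means summed to 0.904% of the sum over all genes and to 1.39% of the sum over genes encoded in the nucleus, since 22 mitochondrially encoded genes held 34.8% of the total. ACTN1 alone gave 0.551%. Across 11772 genes with a reference transcript and a base mean of at least 5, Spearman's rho between base mean and transcript length was 0.02, with a median base mean of 97.6 in the shorter and 104 in the longer transcripts. Dividing by length lowers long genes such as the filamins relative to short ones, and 35 of the 36 pairs of members kept their order when it was done.

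**Figure D3:**
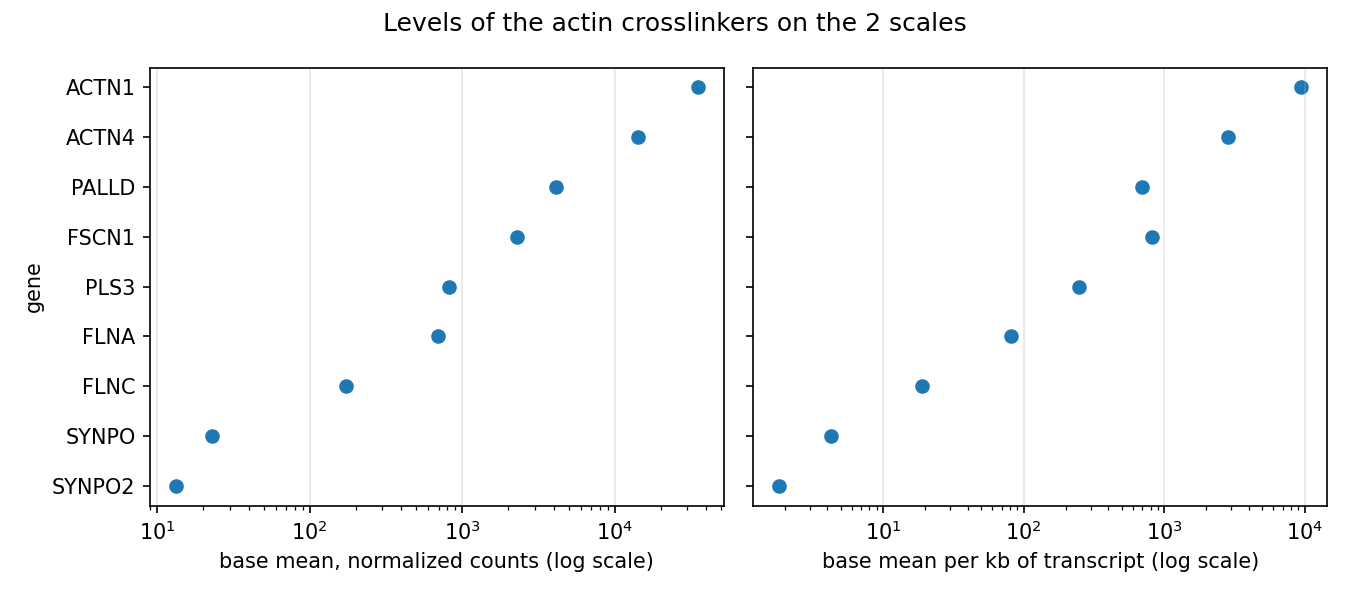
Level of each actin crosslinker as the base mean in normalized counts (left, log scale) and as the base mean per kb of reference transcript (right, log scale), genes ordered by base mean. Each point is 1 value over the libraries of the authors' fit with no error, and PALLD and FSCN1 change places between the panels.

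Other crosslinkers and partners of the same filaments were counted from lists that were chosen with earlier results of these data known. Of 27 other crosslinkers and bundlers, 25 are in the table, with 18 base means of 100 or more and 8 of 1000 or more. Of all genes in the table, 29.4% and 3.67% reached these levels. The highest were TAGLN (transgelin, a calponin relative of smooth muscle) at 5825, MARCKS, which binds actin at the membrane, at 2038, TAGLN2 at 1691 and CNN2, a calponin, at 1638. The value of TAGLN is uncertain, since an overlapping gene of the same strand, ENSG00000280143, has exons over all of its last 500 exonic bases. Per kb of reference transcript these 4 were at 1539 for TAGLN, 475 for MARCKS, 1230.0 for TAGLN2 and 762 for CNN2. ACTN1 and ACTN4 were higher than each of them on both scales.

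Of 16 listed partners of alpha-actinin and palladin, 15 are in the table and 11 had a base mean of at least 100, against 29.4% of all genes. PDLIM1, a PDZ-LIM protein that binds alpha-actinin, was the highest at 7045, followed by CSRP1, a LIM protein of actin bundles, at 5714, LASP1, which binds palladin, at 4265, and ZYX, zyxin of focal adhesions, at 4032. All 7 listed filamin partners are in the table, with VIM, the intermediate filament vimentin, at 19062, RALA, a small GTPase, at 1343, FBLIM1, the filamin-binding migfilin, at 894 and ITGB1, the beta-1 integrin, at 679.9. ITGB1 was thus near FLNA in base mean, but above it per kb of reference transcript, at 182 against 81.9. All 9 listed synaptopodin partners are in the table, and the highest were MYH9, the heavy chain of non-muscle myosin IIA, at 22809, YWHAB, a 14-3-3 protein, at 7236, CD2AP, an adapter of the slit diaphragm, at 929 and CTSL, the protease cathepsin L, at 434. Each of these 4 was above SYNPO on either scale. All 9 synaptopodin partners exceeded its base mean, the lowest of them at 55.1, but SYNPO was only at percentile 50.5 of all genes. Of the 6 actins, ACTA2, smooth muscle actin, followed ACTB and ACTG1 with a base mean of 1021, and ACTG2, ACTC1 and ACTA1 were at 8.05, 4.43 and 2.18.

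The labelled cell type was checked against podocyte markers. Of 14 listed markers 11 are in the table and 8 had a base mean of at least 5. VIM and CD2AP, which many other cells express too, were the only ones above 100. SYNPO came next, above PLA2R1 at 21.8, NES at 18.1 and PODXL at 15.3, and the transcription factors TCF21 and WT1 were at 7.20 and 6.21. NPHS1, which encodes nephrin of the slit diaphragm, and LMX1B, a transcription factor, have no row in the table. Among markers of other cells, 3 of 5 listed for mesangium and smooth muscle have a row, with ACTA2 at 1021, MYH11 at 66.9 and PDGFRB at 4.14. Of 5 tubular markers 2 have a row, AQP1 of proximal tubule at 243 and CUBN under 5. The 3 endothelial markers with a row had base means of 0.690 or less, and PTPRC, the pan-leukocyte marker, one of 0.832. CD68 of macrophages was at 1.06, but its value is uncertain, since a same-strand gene, ENSG00000264772, covers 82.6% of its last 500 exonic bases. The part of other cells or of the state of differentiation in the levels of SYNPO, SYNPO2 and FLNC was not tested.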

How the data were processed

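RNA from 3 vehicle and 3 levamisole cultures was sequenced from the 3′ end. Per the paper's methods and the submitters' processing notes, the authors trimmed reads with Trim Galore 0.4.5, mapped them to GRCh38 with STAR 2.7.5a, counted them with HTSeq 0.11.0 and fitted DESeq2 1.22.0. The methods also describe mapping with BWA MEM and RPM scaling, and a minimum of 5 reads per sample and gene, although the base means of the table reach down to 0.194. Use of molecular identifiers is not given in the sources used here. The base mean is a signal deposited by the authors, the mean of depth-scaled counts over the libraries of their fit. The deposited log2 fold changes, standard errors, Wald statistics, p-values and adjusted p-values are the authors' own comparison and were not used. With 0 columns of per-sample values, the depth per library is unknown and no test, interval or replicate error was possible.

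Members were matched by symbol, and they and the lists were chosen with earlier results of these data known. The genes named are the members, their family relatives, ACTB, ACTG1 and the 4 highest genes of each list; the other actins and the markers were named after their values were seen. A few listed genes are not reported here. Positions and transcripts are from GENCODE 44 on GRCh38, a later annotation than the authors', and all 9 identifiers matched. The MANE Select transcript served as reference transcript. Windows of 60 bases, the length of read 2 before trimming, were searched on the sense strand of all GENCODE transcripts, not in the genome. Shorter windows, for reads cut by trimming, were not searched. Proteins translated from the coding sequences were aligned globally (BLOSUM62, gap opening 11, extension 1). Python 3.11.15, NumPy 2.4.6, pandas 2.3.3, Biopython 1.88 and matplotlib 3.10.9 were used. The search for steps in low base means (tolerance 1e-11) was tested on simulated data.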

Additional observations from a re-analysis of the deposited data

How the results depend on the processing

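No paired analysis was possible because each gene has a single value over the libraries of the authors' fit. Leaving out replicates, other normalizations and other filters on the counts could not be run either. The order of 35 of 36 pairs of members held per kb of the MANE Select transcript, a scale added after seeing the data, and per kb of the longest transcript. On these 2 scales the ratio was 0.306 and 0.447 for ACTN4 to ACTN1, 4.32 and 4.30 for FLNA to FLNC, and 0.430 and 0.267 for SYNPO2 to SYNPO, against 0.410, 4.01 and 0.584 in base mean, and no ratio turned. The members' share of the summed base means was 1.39% over nuclear genes and 0.906% when genes under a base mean of 5 were dropped. With the last 1000 exonic bases, 1 member had windows of read length in common with another gene, FLNC with 12.6% of them. At a tolerance 10 times wider, at most 3 pairs of low base means had a difference in common.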
